A study of Homo sapiens with 4 samples.

Results

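Among the non-coding transcripts measured in HUH7 cells, 437 were single-exon long non-coding RNAs (lncRNAs) without a gene name and with no exonic base in common with protein-coding transcripts of either strand. They were chosen by a rule on annotation that used no measured value, out of 19835 transcripts in all, and came from 436 genes. HUH7 is an established human hepatocellular carcinoma line. It was grown in medium with serum, and the methods name no treatment. RNA was sequenced in 4 strand-specific libraries after ribosomal RNA removal. Library titles carry the letter L or H, which the labels do not explain, and the 4 libraries were kept as 1 group. Each transcript was therefore compared with the level of 5 FPKM that the study used as its expression limit, and with transcripts of like kind. FPKM are fragments per length of transcript and per total of the library, which here holds fragments on non-coding transcripts only. Nothing in the labels gives separate cultures. Errors (SD, n = 4 throughout) and p-values therefore cover differences among the libraries, any between L and H included. These differences may be technical only or may go with the letters.

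A lncRNA with 1 exon has no splice junction. Reads over it therefore cannot be told from unspliced precursor RNA, from transcription running on past a neighbouring gene, or from genomic DNA by a junction. Much of the human genome between genes consists of repeated elements, of which the Alu family is the most numerous. Alu elements descend from 7SL RNA, the RNA of the signal recognition particle, and are carried in introns, in 3′ ends of messages and in many lncRNAs. A short read from a repeated stretch can match many transcripts.

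The estimated depth was 4514000 to 5032000 fragments per library on non-coding transcripts. Members held 0.871% to 1.25% of the summed FPKM of a library, the most in replicate 2. Of 7 lncRNAs set as hepatocyte and hepatoma markers, 6 had a row under that name and 4 had a mean above 5 FPKM. HULC, a lncRNA known for its high level in liver carcinoma, had 693 ± 64.8 FPKM and LINC00261 had 377 ± 27.7 FPKM. FAM99A and FAM99B were near 0, at 0.238 ± 0.285 and 0.41 ± 0.0837 FPKM. Markers of the hepatic line were thus present in part.

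The levels of the members ran from 0 to 2466 FPKM, with a median of 3.41 FPKM and an upper quartile of 27.3 FPKM. A mean above 5 FPKM was found for 194 of 437 members (44.4%), against 28.4% of all 19835 transcripts. Of these members, 181 were above 5 FPKM in all 4 libraries. At the other end, 96 members (22%) were listed at 0 in every library, against 39.4% of all transcripts. There were 287 members with a value above 0 in all 4 libraries and 54 with a value in 1 to 3 of them. In limma's one-sample test of log2(FPKM + 1) against the limit, with Benjamini-Hochberg adjustment over all 11435 transcripts that averaged 0.1 FPKM or more, 175 of the 319 members tested were called above 5 FPKM and 98 below, and 46 could not be placed. Over all transcripts tested, 41.9% were called above and 43.3% below. The other 118 members had a mean under 0.1 FPKM and were not tested.

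**Figure D1:**
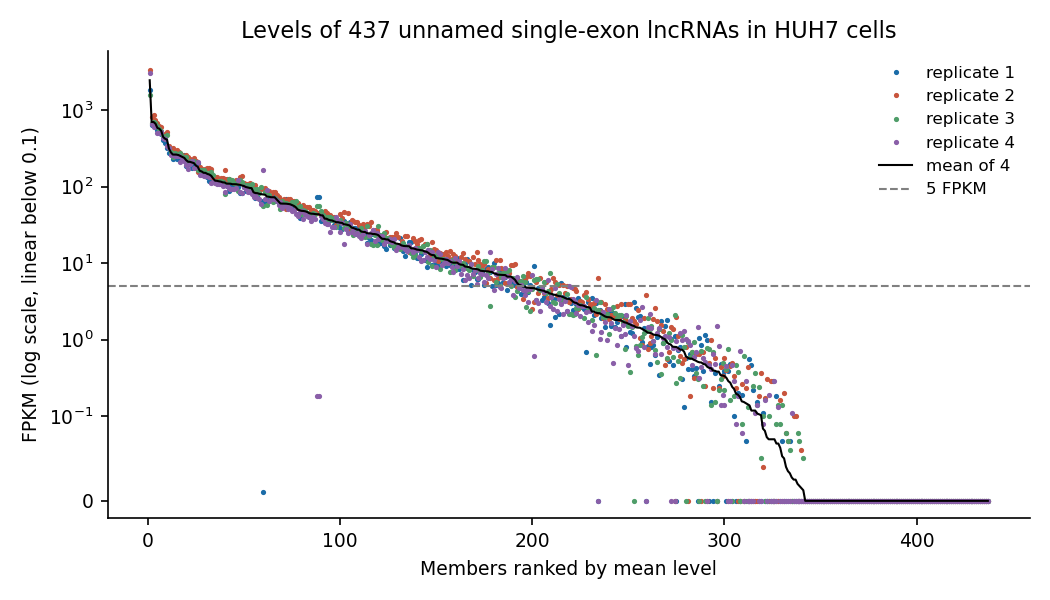
FPKM of the 437 members in each of the 4 libraries (dots, vertical axis, log scale and linear below 0.1 FPKM) against their rank by mean level (horizontal axis), with the mean as a line and 5 FPKM as a dashed line. The mean crosses the dashed line after rank 194, and the last 96 members are at 0 in every library.

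Transcripts of like kind differed in these shares. Of 5489 unnamed multi-exon lncRNAs without coding overlap, 24.2% had a mean above 5 FPKM and 47.3% were listed at 0. Of 146 named single-exon lncRNAs without coding overlap, 59.6% were above 5 FPKM and 17.1% were listed at 0. Of 53 unnamed single-exon lncRNAs antisense to coding exons, 62.3% were above 5 FPKM. The members thus lay between the unnamed multi-exon and the named single-exon lncRNAs. They were longer than the unnamed multi-exon lncRNAs, with a median of 1625 against 558 bases, and length by itself went with level only weakly (Spearman's rho 0.20 over 437 members, which share the same 4 libraries). These shares are given as description.

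ENST00000578585 was the most abundant member, with 1834, 3369, 1600 and 3061 FPKM in replicates 1 to 4 (2466 ± 879 FPKM). Replicates 2 and 4 were higher than replicates 1 and 3, and their values did not overlap. In the sample titles the 2 higher libraries carry the letter H and the 2 lower ones the letter L, letters that the labels do not explain and that were not used for a test. Both H libraries were above both L libraries for 29 of the 194 members above 5 FPKM (14.9%), against 16.2% of all transcripts above 5 FPKM, and both L libraries were above both H libraries for 7 (3.61%), against 11.9%. The lncRNA H19, not a member, had 3.87 and 3.91 FPKM in the L libraries and 7.52 and 8.4 FPKM in the H libraries. The values of HULC, LINC00261 and LINC02037, the other markers with a mean above 5 FPKM, overlapped between L and H. ENST00000578585 (ENSG00000264215, chr17:20691384-20692897, plus strand) lies 207160 bases from the nearest coding gene, CDRT15L2. Its whole length is a copy, at 95.5% identity, of an exon of SCD on chromosome 10. SCD encodes stearoyl-CoA desaturase, the enzyme that makes monounsaturated fatty acids. None of its sampled 24-mers had 10 or more genomic copies. Coding transcripts were left out of the reference the authors aligned to, so reads of the SCD message and of this copy cannot be told apart by the deposited values.

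A further 9 members had a genomic copy over 73% to 100% of their length, at 90.6% to 100% identity, that overlaps an exon of a coding gene on the same strand. How much of each copy is exonic was not measured. Of the 10 in all, 8 were called above 5 FPKM, against 41.9% of all transcripts tested. ENST00000415663, inside COL21A1 on chromosome 6, had 592, 623, 571 and 505 FPKM in replicates 1 to 4. Over 99.1% of its length it has a copy, at 95.2% identity, that overlaps an exon of ZFAND5, which encodes a zinc finger protein of the ubiquitin pathway. ENST00000574180, near SHCBP1 on chromosome 16, had 202, 154, 164 and 208 FPKM. It shares 99.1% of its length with transcripts of RAB43, a small GTPase of membrane traffic, and its copy there has 99.8% identity. The members whose copies overlap exons of PDCD6 (ENST00000570130) and NOMO3 (ENST00000552753) had 42.1 ± 3.31 and 31.1 ± 3.56 FPKM. Those whose copies overlap exons of NOS2, PDXDC1 and CISD2 had 20.3, 10.1 and 7.88 FPKM. A second member with such a copy at NOMO3, ENST00000546674, had values of 0, 6.41, 2.44 and 0 FPKM in replicates 1 to 4. ENST00000563063, with a copy that overlaps an exon of KRT16, a keratin of stratified epithelia, was low at 0.575 ± 0.459 FPKM.

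Below ENST00000578585, the levels formed a close series. ENST00000579188, inside OGFOD3, had 638, 811, 689 and 669 FPKM in replicates 1 to 4, and ENST00000572594, inside FN3K, had 646, 864, 698 and 599 FPKM. Replicate 2 was the highest library for both. Their mean log2 ratio within a library was 0.01 ± 0.11 (SD), so the 2 members did not differ beyond the spread. ENST00000446516, 727462 bases from EDIL3 on chromosome 5, had 626, 734, 688 and 617 FPKM. It did not differ from ENST00000572594 beyond the spread (0.06 ± 0.12), and it was higher than ENST00000584643 in 4 of 4 libraries (0.19 ± 0.07). ENST00000584643 lies inside TVP23C and had 545, 678, 614 and 508 FPKM. ENST00000568699, 1006846 bases from CDH11 on chromosome 16, had 485, 608, 529 and 523 FPKM and was higher than ENST00000581712, inside YES1, in 4 of 4 libraries (0.26 ± 0.04). ENST00000581712 had 446 ± 34.6 FPKM, ENST00000561624 in COG7 had 423 ± 37.6 FPKM and ENST00000508713 in CYSTM1 had 412 ± 96.7 FPKM. All of these were called above 5 FPKM, with adjusted p from limma between 4.87e-12 and 5.15e-11. Repeated sequence, defined below, made up 33.7% of ENST00000579188, 57.7% of ENST00000572594, 57.1% of ENST00000446516, 48.6% of ENST00000584643 and 50% of ENST00000561624. It made up 23% of ENST00000568699, 32.3% of ENST00000581712 and 26.3% of ENST00000508713. ENST00000584643 has a copy elsewhere over its full length at 98.7% identity. How far these levels and ratios belong to the loci themselves was not tested.

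The share of repeated sequence went with level, although 107 of the members above 5 FPKM had under 10% of it. This share counts, among every 8th 24-mer of a transcript, those with 10 or more occurrences in GRCh37 over both strands. The 175 members with no such 24-mer had a median of 0.05 FPKM, and 21 of them (12%) had a mean above 5 FPKM. With up to 5% repeated, 39 of 116 were above 5 FPKM, at a median of 1.87 FPKM. With 5% to 10%, 47 of 52 were above it, at 17.9 FPKM. With 10% to 25%, 62 of 67 were above it, at 72.7 FPKM, and with 25% or more 25 of 27, at 189 FPKM. Spearman's rho between repeated share and mean level was 0.74 over the 437 members and 0.74 over the 242 that lie far from coding genes. Median length was larger in the members that were not sequence-unique (1828 bases) than in the sequence-unique ones described below (728.5 bases).

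**Figure D2:**
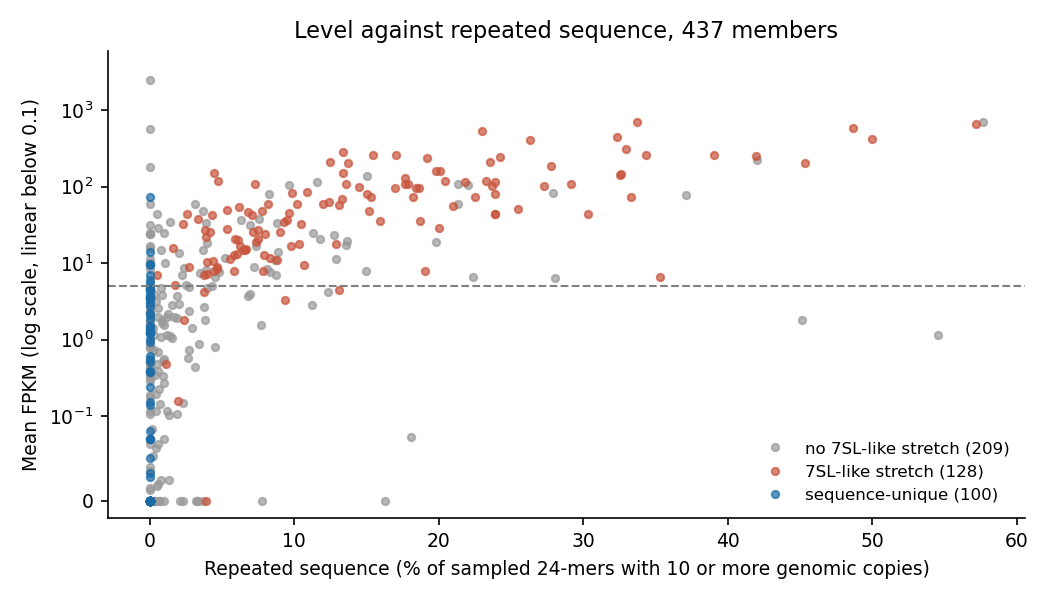
Mean FPKM of each member (vertical axis, log scale and linear below 0.1 FPKM) against its repeated sequence in percent of sampled 24-mers (horizontal axis), with 128 members that carry a 7SL-like stretch in red, 100 sequence-unique members in blue and the other 209 in grey. Nearly all members to the right of 5% repeated lie above the dashed line of 5 FPKM, and 3 grey members at 0% stand far above the other members there, at 2466, 573 and 182 FPKM.

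Like transcripts followed the same order. Among unnamed multi-exon lncRNAs the share above 5 FPKM went from 4.45% with no repeated 24-mer to 84.1% with 25% or more. Among named single-exon lncRNAs it went from 37.5% of 72 to 4 of 4. Over all matched transcripts other than members it went from 10.4% to 81.4%. With under 10% repeated, 31.2% of 343 members were above 5 FPKM, against 11.3% of unnamed multi-exon and 53.2% of named single-exon lncRNAs. The order of the 3 kinds was thus the same in that subset as over all transcripts of each kind. Repeated sequence made up 10% or more of the transcript in 21.5% of members, 19.3% of unnamed multi-exon and 13.7% of named single-exon lncRNAs. Whether repeated sequence accounts for the levels was not tested.

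**Figure D3:**
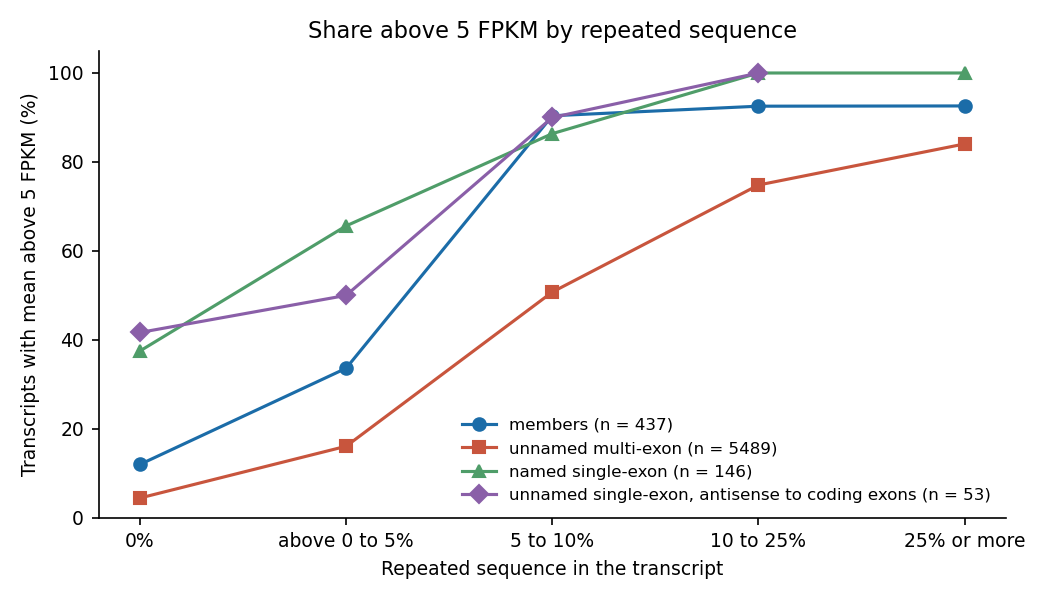
Share of transcripts with a mean above 5 FPKM (vertical axis, percent) in 5 classes of repeated sequence (horizontal axis) for the 437 members and 3 like kinds of lncRNA. Every line is higher at its right end than at its left end, and members go from 12% to 92.6%.

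Stretches like 7SL RNA, by alignment to RN7SL2 on either strand, were found in 128 members, of which 121 (94.5%) had a mean above 5 FPKM, at a median of 47 FPKM. Of the 309 members without one, 73 (23.6%) were above 5 FPKM, at a median of 0.6 FPKM. All 69 members whose 7SL-like stretches lay only on the sense strand were above 5 FPKM, at a median of 47.5 FPKM. Of 41 members with such stretches only on the antisense strand, 35 were above it, at a median of 36.9 FPKM. High levels were therefore found with either orientation. Of 25 members with 10% or more repeated sequence but no 7SL-like stretch, 19 were above 5 FPKM, at a lower median of 19.4 FPKM. Of 59 members with a 7SL-like stretch and under 10% repeated, 53 were above it, at 16.8 FPKM.

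Sequence-unique members, with every sampled 24-mer found once in the genome and no stretch in common with coding or structural RNAs from elsewhere, numbered 100. This class was set after the levels had been seen. Of these, 53 were listed at 0 in every library and 7 had a mean above 5 FPKM. In limma's test 4 of the 40 tested were called above 5 FPKM and 24 below, against 41.9% above and 43.3% below over all transcripts tested. Only 1 of the 54 that lie far from coding genes had a mean above 5 FPKM.

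ENST00000519691 was that transcript and the most abundant of the class, with 66.2, 81.3, 58.1 and 90.7 FPKM in replicates 1 to 4, every library well above 5 FPKM (74.1 ± 14.6 FPKM, adjusted p from limma 1.51e-09). It belongs to ENSG00000254290, has 2379 bases at chr8:37454998-37457376 on the minus strand, and lies 95924 bases from ZNF703. Its level rests on about 818 estimated fragments per library. It ends with a polyadenylation signal, AATAAA, in its last 50 bases. Both H libraries of ENST00000519691 were above both L libraries. The same held for 3 of the 7 sequence-unique members above 5 FPKM in all (42.9%), against 16.2% of all transcripts above 5 FPKM. The reverse held for 0 of the 7. ENST00000570409 had 11, 17.7, 14.1 and 13.9 FPKM and overlaps an exon of a non-coding isoform of TRAP1, a mitochondrial chaperone (adjusted p from limma 2.69e-05). ENST00000530248, inside XKR6 on chromosome 8, had 8.46, 10.3, 9.18 and 10.7 FPKM (adjusted p from limma 0.00093). ENST00000564612 starts 25 bases past the end of ARMCX3 on chromosome X and had 9.29, 11.9, 9.6 and 7.3 FPKM (adjusted p from limma 0.00197). All 4 libraries of each of these were above the limit.

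The other 3 sequence-unique members with a mean above 5 FPKM could not be placed on either side of it. Without the mean-variance trend ENST00000507630 was called above it as well, which made 5 of the class. ENST00000507630, inside ZNF608, had 5.55, 6.46, 7.5 and 8.72 FPKM. ENST00000562848, inside HOXC6, a homeobox gene of the HOXC cluster, had 5.19, 9.62, 3.57 and 5.89 FPKM, with replicate 3 under the limit. ENST00000561909, which starts 192 bases from the start of PPP2R5E on the other strand, had 6.31, 4.87, 4.36 and 6.65 FPKM, on about 27 estimated fragments per library, with 2 libraries on either side.

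**Figure D4:**
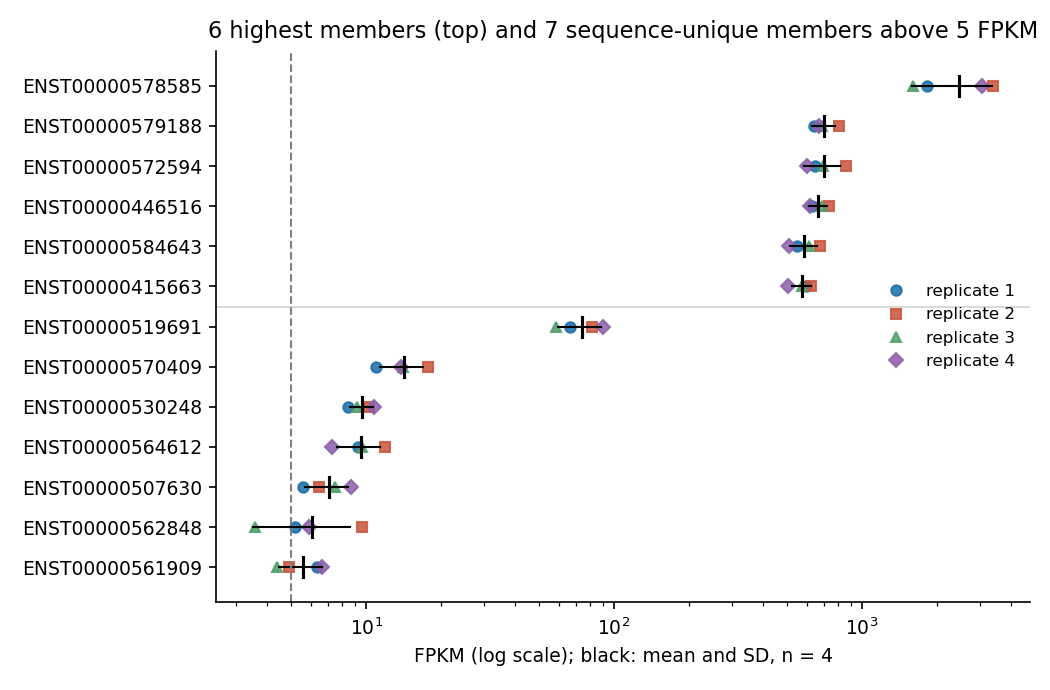
FPKM in each of the 4 libraries (points, horizontal log axis) for the 6 most abundant members and, below the grey line, the 7 sequence-unique members above 5 FPKM, with mean and SD in black. The upper 6 lie at 505 FPKM or more in every library, ENST00000519691 lies between 58.1 and 90.7 FPKM, and ENST00000562848 and ENST00000561909 straddle the dashed line of 5 FPKM.

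The 3′ ends of sequence-unique members above 5 FPKM are shown where they hold a polyadenylation signal (AATAAA or ATTAAA), except that of ENST00000519691, which is not shown here, with those of a member past APOB and a member beside XBP1 described below. A signal of this kind near the end is what is known of transcripts that are cleaved and polyadenylated. Each run gives the last 50 bases of the transcript and the 20 genomic bases after it (GRCh37), with the signal in capitals. The positions are chr16:3700617-3700686 (minus) for ENST00000570409, chr5:124070291-124070360 (minus) for ENST00000507630 and chr12:54416324-54416393 (plus) for ENST00000562848. They are chr14:64011333-64011402 (plus) for ENST00000561909, chr2:21222165-21222234 (minus) for ENST00000567376 and chr22:29197163-29197232 (plus) for ENST00000585003.
ENST00000570409: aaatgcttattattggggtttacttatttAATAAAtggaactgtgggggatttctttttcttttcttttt
ENST00000507630: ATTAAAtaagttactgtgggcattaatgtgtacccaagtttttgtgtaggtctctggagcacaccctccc
ENST00000562848: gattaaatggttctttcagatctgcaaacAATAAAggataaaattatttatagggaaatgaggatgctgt
ENST00000561909: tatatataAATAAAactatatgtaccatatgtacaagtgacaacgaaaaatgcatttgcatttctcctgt
ENST00000567376: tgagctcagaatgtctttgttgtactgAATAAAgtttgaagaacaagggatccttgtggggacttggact
ENST00000585003: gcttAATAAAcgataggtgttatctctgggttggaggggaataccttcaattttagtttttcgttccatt
In ENST00000570409, ENST00000562848 and ENST00000567376 the signal ends 15, 15 and 17 bases before the annotated end. In ENST00000507630, ENST00000561909 and ENST00000585003 it ends farther away, 44, 36 and 40 bases before the annotated end.

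Over all members, 271 of 437 (62%) had AATAAA or ATTAAA in their last 50 bases on the strand of the transcript, against 37.3% of unnamed multi-exon lncRNAs, 65.1% of named single-exon lncRNAs and 52.8% of unnamed single-exon lncRNAs antisense to coding exons. The signal did not go with level: 44.3% of members with it and 44.6% of members without it had a mean above 5 FPKM. A run of genome with at least 12 A in the 20 bases after the end was found for 32 members (7.32%), against 4.15% of unnamed multi-exon lncRNAs, 4.11% of named single-exon lncRNAs and 11.3% of unnamed single-exon lncRNAs antisense to coding exons. Of these 32, 19 were above 5 FPKM. A start rich in CpG, with an observed to expected ratio of at least 0.6 and at least 50% G and C over 250 bases on either side, was found for 48 members (11%). It was found for 8.05% of unnamed multi-exon lncRNAs, 50% of named single-exon lncRNAs and 35.8% of unnamed single-exon lncRNAs antisense to coding exons. Members with and without it were above 5 FPKM in 47.9% and 44% of cases. TATAAA starting 40 to 20 bases before the annotated start was found for 7 members (1.6%), against 1.22% of unnamed multi-exon lncRNAs.

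Position relative to coding genes also went with level, and partly remained among members with under 10% repeated sequence. Of 65 members inside a coding gene on its strand, 41 were above 5 FPKM, at a median of 8.64 FPKM. Of 46 within 5 kb past the end of a coding gene on its strand, 27 were above it, at 12.9 FPKM. Of the 242 members far from coding genes, 91 (37.6%) were above it, at 1.4 FPKM, and of 23 lying over a coding gene on the other strand, 7 were above it, at 0.53 FPKM. With under 10% repeated, 21 of 44 inside a gene and 17 of 36 past an end were above 5 FPKM, against 48 of 193 far from genes and 2 of 18 over a gene on the other strand. Intronic precursor RNA and transcription past a gene's end were not told apart from separate transcripts here.

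By distance from the nearest upstream coding end on the same strand, the median fell from 12.9 FPKM at 1 to 5 kb to 5.38 FPKM at 5 to 10 kb, 4.72 FPKM at 10 to 50 kb and 1.8 FPKM beyond. Within 1 kb there were 11 members, at 10.1 FPKM. Members inside a coding gene were counted here as well, by the nearest other coding gene ending upstream. The median repeated share was 0.43% within 1 kb, then 2.67%, 0.46%, 2.7% and 0.82% in order of distance. ENST00000569130, 2698 bases past NUCB1 on chromosome 19, had 227, 287, 270 and 252 FPKM and was the most abundant member past a coding end. It is 274 bases long and 25.5% of it resembles 7SL RNA. ENST00000567376 was the only member within 10 kb of a gene on a list of 35 liver genes. It begins 512 bases past APOB, which encodes the main protein of very low density lipoprotein, and had 20.1, 34.6, 18 and 25 FPKM in replicates 1 to 4 (24.4 ± 7.41 FPKM, adjusted p from limma 1.63e-06). Its lowest library was still above 5 FPKM and 1.0% of it was repeated sequence.

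The most abundant members past a coding end held more repeated sequence than the median member (1.03%). ENST00000568958, 2321 bases past C2orf72, had 189 ± 17.4 FPKM, ENST00000563059 past EIF4EBP1 had 158 ± 12.5 FPKM, ENST00000561542 past MTPAP had 151 ± 14.4 FPKM and ENST00000562328 past ARPC2 had 120 ± 9.24 FPKM. Repeated sequence made up 27.8%, 19.8%, 13.4% and 20.5% of them. Over a coding gene on the other strand, ENST00000563704 over C16orf96 had 203 ± 28.8 FPKM at 45.4% repeated, and ENST00000503695 over CHFR, a checkpoint ubiquitin ligase, had 108 ± 13.1 FPKM at 29.1%. ENST00000568280, over KCNJ11, a potassium channel gene, had 28.3, 38.9, 33.9 and 33.3 FPKM at 3.91% repeated. On exons of non-coding isoforms, ENST00000556738 in TTC5 and ENST00000573063 in SLC9A5 had 58.9 ± 7.16 and 45 ± 6.4 FPKM at 8.19% and 9.64% repeated, and ENST00000582096 had 9.14, 3.09, 5.95 and 0.61 FPKM, on either side of the limit.

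Members that start within 1 kb of a coding start on the other strand (divergent) numbered 19, of which 7 were above 5 FPKM, at a median of 1.85 FPKM. Their starts were CpG-rich in 17 of 19 cases, against 19 of 242 members far from coding genes. ENST00000567904, beside the start of CEP350, a centrosomal protein, was the most abundant of them, with 230, 322, 244 and 258 FPKM, and 17% of it was repeated sequence. ENST00000585003 starts 112 bases from the start of XBP1, the transcription factor of the unfolded protein response, and had 99.1, 118, 86.6 and 121 FPKM (106 ± 16.3 FPKM, adjusted p from limma 1.93e-10). It held no 7SL-like stretch, and 9.68% of it was repeated sequence. ENST00000565519, 80 bases from the start of CMTM8, had 69.2, 50.7, 61.7 and 57.9 FPKM with no repeated 24-mer. These 3 were above 5 FPKM in every library.

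Members that copy each other showed how values were divided between them. ENST00000546612 and ENST00000549796 on chromosome 16 have the same 1459 bases, and ENST00000548268 differs from them at 1 base, C1366T, counted from the 5′ end of ENST00000548268. They lie beside NOMO3, NOMO2 and NOMO1, copies of a gene for a membrane protein of the endoplasmic reticulum, and each overlaps a microRNA gene of the mir-3180 group on the other strand. The 41 bases around the differing base, in capitals, are at chr16:15003817-15003857 (minus) and chr16:16402472-16402512 (minus).
ENST00000548268: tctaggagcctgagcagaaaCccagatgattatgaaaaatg
ENST00000546612: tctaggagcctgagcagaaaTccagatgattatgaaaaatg
ENST00000546612 and ENST00000549796 each had 72.9, 45.7, 55.5 and 0.18 FPKM in replicates 1 to 4. ENST00000548268 had 0.01, 94.6, 55.5 and 166 FPKM, the highest where the others were lowest. Their sum was 146, 186, 167 and 166 FPKM (166 ± 16.4 FPKM), a coefficient of variation (CV) of 9.84% against 71.2% and 88.3% for the single transcripts. In limma's test the identical pair could not be placed (adjusted p 0.0601) and ENST00000548268 was called above 5 FPKM with an adjusted p of 0.0471. That call was lost without replicate 2, 3 or 4, at log2 differences of 1.82, 2.07 and 1.55. It was lost as well with a pseudocount of 0.5, without the filter, with a minimum mean of 1 FPKM, without the trend and under median-of-ratios scaling, at 2.24 to 2.36 against 2.36. The identical pair was called above 5 FPKM without replicate 4, at 3.27, and when scaled to the mean summed FPKM, at 1.88 against 1.87.

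**Figure D5:**
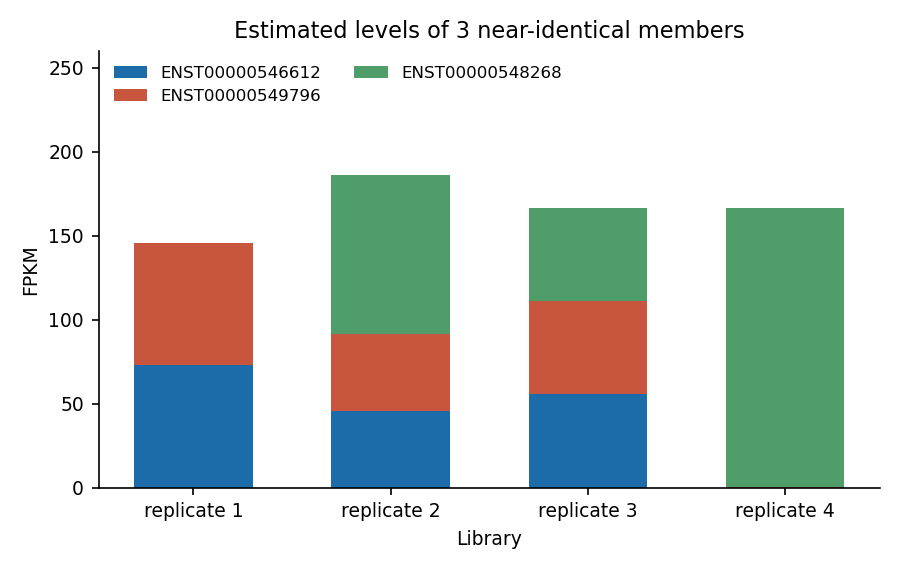
Stacked bars of FPKM (vertical axis) in the 4 libraries (horizontal axis) for ENST00000546612, ENST00000549796 and ENST00000548268, which differ at 1 base or none. The parts change from library to library while the total stays between 146 and 186 FPKM.

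ENST00000552015, a longer member on the same chromosome, holds within it a copy of the whole of ENST00000548268 at 99.25% identity and had 8.34, 5.42, 10.5 and 6.98 FPKM. ENST00000573866, of which 100% is shared with SNORD3A, a gene of the U3 small nucleolar RNA, was listed at 0 in every library.

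In all, 53 members had a copy elsewhere in the genome over at least 50% of their length at 90% identity or more. Of these, 30 (56.6%) had a mean above 5 FPKM, against 42.7% of the 384 without one. Chromosomes 16 and 17 held 58 and 62 members, 13.3% and 14.2% of all, against 5.27% and 5.09% of matched transcripts. The share above 5 FPKM was 47.5% on these 2 chromosomes and 43.2% on the others. No member overlapped a structural RNA gene on its own strand, and 3 overlapped a pseudogene on it. ENST00000564237, over HIST2H2BC, a histone pseudogene, had 27.3 ± 4.28 FPKM, ENST00000583179, over NOS2P1, had 20.3 ± 1.3 FPKM and ENST00000561788, over PDXDC2P, had 10.1 ± 2.36 FPKM. All 3 were called above 5 FPKM, as were 41.9% of all transcripts tested.

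After leaving out members with 25% or more repeated or shared sequence, those inside a coding gene or on an exon of its isoform on the same strand, those within 5 kb past a coding end and those on a pseudogene, 298 members remained. Of these, 103 (34.6%) had a mean above 5 FPKM and 92 of 194 tested were called above it in limma's test, against 41.9% of all transcripts tested. The highest was ENST00000568699, given above. ENST00000564032, 9075 bases from MEF2D, had 263 ± 18 FPKM, ENST00000580282 had 245 ± 13.3 FPKM and ENST00000582866, past ALYREF, had 238 ± 19.2 FPKM. ENST00000569087 and ENST00000524467 had 212 ± 31.2 and 211 ± 16.9 FPKM. ENST00000562917 on chromosome 8 had 161 ± 17.7 FPKM. These 7 and ENST00000567904 carried 7SL-like stretches over 6.76% to 19.2% of their length.

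The longest members differed widely. ENST00000564619, 8400 bases, had 0.11, 0.04, 0.1 and 0.09 FPKM, and ENST00000562284, 7000 bases and 5513 bases past GABRB1, had 33.7, 33.8, 33.1 and 27.5 FPKM. ENST00000566733, 7153 bases, had 9.88, 6.04, 8.99 and 4.51 FPKM and could not be placed, although it was called above 5 FPKM without replicate 4 at a log2 difference of 0.61. In the 1 gene with 2 member transcripts, ENST00000565664 had 20.8 ± 4.22 FPKM and ENST00000569111 had 0.285 ± 0.36 FPKM. The former had 11.8% repeated sequence and the latter none.

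The members nearest the limit were ENST00000561909, ENST00000578897 and ENST00000563631 above it, at 5.55, 5.21 and 5.12 FPKM, and ENST00000564385, ENST00000562182 and ENST00000561653 below it, at 4.95, 4.93 and 4.78 FPKM. None of these 6 could be placed, with SDs of 0.61 to 1.65 FPKM.

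Spread between libraries fell with level, to a median CV of 13.7% at 20 to 100 FPKM and 10% above 100 FPKM, against 15% and 11.3% over all transcripts at those levels. ENST00000567905 and ENST00000553378 varied least among members above 20 FPKM, with CVs of 4.3% and 4.43%. ENST00000563449, over PDPK1 on the other strand, varied from 17.8 FPKM in replicate 4 to 46.4 FPKM in replicate 2. A copy of its whole length, at 99.9% identity, lies at chr16:2694130-2696130. Replicate 2 was the highest library for 138 of the 194 members above 5 FPKM (71.1%), against 49.8% of all transcripts above 5 FPKM. It was the highest for 67 of 87 members with 10% or more repeated sequence, for 71 of 107 with less and for 3 of 7 sequence-unique members, and the other 4 of these were highest in replicate 4, the other library titled H. The highest library was titled H for 150 of the 194 members (77.3%), against 62.8% of all transcripts above 5 FPKM. The median deviation of replicate 2 from the mean of a member was 0.20 on the log2(FPKM + 1) scale, and the part of any technical difference of that library was not tested.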

How the data were processed

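RNA of 4 HUH7 libraries was measured after ribosomal RNA removal. The molecule is labelled as polyA RNA, which the extraction protocol does not state. The authors deposited FPKM per non-coding transcript. Per their methods and processing notes, Bowtie 1.01 placed the reads on Ensembl 68 non-coding transcripts (hg19, GRCh37) and RSEM 1.2.3 divided those that match several. The strand setting is not given in the sources used here. All 4 libraries, titled L or H, were kept as 1 group, and no column was left out.

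Transcript identifiers, version removed, matched GENCODE release 44 mapped to GRCh37 for 18373 of 19835 transcripts, and for 392 of 437 members with the same version number. Other versions may differ in their models, and fragments are given only for the same version. Members have gene type lncRNA, 1 exon, no gene name and no exonic overlap with coding transcripts, outside the region of the major histocompatibility complex, and 1 further gene was left out by the rule. The members and all lists were chosen with earlier results of these data known.

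log2(FPKM + 1) was tested against log2(5 + 1) with limma 3.58.1 in R 4.3.3 (one-sample moderated test, mean-variance trend, two-sided, Benjamini-Hochberg threshold 0.05) over all transcripts averaging 0.1 FPKM or more. The script was tested on simulated data. Log2 differences understate those of low transcripts. Estimated fragments come from steps in low FPKM values times the effective length (length minus 80 bases). In each library 56.7% to 59% of low values came within 0.05 of whole, too few for a count test or for counting intervals.

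Repeated sequence used 24-mers, every 8th. Shared sequence was matched with blastn 2.17.0 over at least 50 bases at 95% identity, 7SL-like stretches with blastn against RN7SL2, and copies with minimap2 2.31. Overlaps used bedtools 2.31.1. Sequences were read from GRCh37. Those of the 7SL-like stretches are not reported here. Transcripts named were, by rule, the 12 and the 8 plain ones of highest mean, the 5 highest per position class and per pseudogene overlap, the 3 nearest the limit on either side, the 5 with the largest and the smallest CV above 20 FPKM, the 3 longest, those near liver genes, those of a gene with 2 members, and those above 50 FPKM with an outlying library. Sequence-unique members and members with a copy that overlaps a coding gene's exon were added after values had been seen. Of the study's candidates, 6 were looked for and none was a member. Alternatives were another pseudocount, filter, trend, scaling, threshold and definition, and leaving out each library.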

Additional observations from a re-analysis of the deposited data

Results flagged for a closer look

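For 4 named members, 1 library stood apart from the other 3 by Dixon's test at 95%, on the gap to the nearest library over the whole range. The first 3 were named because of this, so their number is no finding. Over the 194 members above 5 FPKM, 13 were marked. Such a test marks about 1 in 20 groups by chance if values are normally distributed. The share over all transcripts above 5 FPKM was not counted, so nothing particular to the members can be read from this number. ENST00000563810, inside ANK1, had 175 FPKM in replicate 1 against 216 to 219 FPKM in the others (gap over range 0.927). ENST00000438151 had 112 FPKM in replicate 2 against 97.9 to 99.9 FPKM (0.858). ENST00000567919 had 77.1 FPKM in replicate 2 against 64.4 to 66.2 FPKM (0.861). ENST00000562284 had 27.5 FPKM in replicate 4 against 33.1 to 33.8 FPKM (0.895). All 4 members were above 5 FPKM in every library.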

How the results depend on the processing

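The count of members called above 5 FPKM (175) lay between 152 and 176 under the alternatives that kept this limit. It was 142 against a limit of 10 FPKM and 235 against 1 FPKM. The count with a mean above 5 FPKM (194) lay between 169 and 200 at this limit, and was 161 against 10 FPKM and 269 against 1 FPKM. Leaving out 1 library gave 168 to 176 members called above, 87 to 96 called below, 194 to 200 with a mean above 5 FPKM and 87 to 94 plain members called above. The count called below (98) was 48 with a minimum mean of 1 FPKM, which tests fewer low transcripts, and 28 against a limit of 1 FPKM. Plain members called above (92) were 52 with repeated or shared sequence under 10%. Sequence-unique members called above (4) were 20 against a limit of 1 FPKM, 2 against 10 FPKM and 2 among transcripts of the same version, 5 without the trend, and 4 without any 1 library. Against a limit of 10 FPKM, the log2 difference turned negative for ENST00000561788 (-0.0086), ENST00000530248 (-0.0501) and ENST00000564612 (-0.0813), which had been called above 5 FPKM. It also did for ENST00000507630 (-0.46), ENST00000562848 (-0.71), ENST00000561909 (-0.76), ENST00000578897 (-0.83) and ENST00000563631 (-0.86), which had no call at 5 FPKM. Each of these had a call under only 1 of the limits. For ENST00000566733 (-0.45) it turned negative without a call under either limit. Against 1 FPKM it turned positive, with a call under only 1 of the limits, for ENST00000564385 (1.54), ENST00000562182 (1.55), ENST00000561653 (1.48) and ENST00000582096 (1.21). With the limit kept at 5 FPKM, 5 of 68 named members tested changed their call under some alternative. The log2 difference of 7 others, none of them called, changed sign without 1 of the libraries: ENST00000561653, ENST00000562182, ENST00000562848, ENST00000563631, ENST00000564385, ENST00000578897 and ENST00000582096, at values of -0.05 to 0.14. No paired analysis was possible because there was 1 group. Depth limits the low members most: a level near 5 FPKM in a transcript of 1096 bases rests on about 27 estimated fragments.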
